A study of Mus musculus with 60 samples.

Results

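The variable segments of the immunoglobulin kappa light chain (Igkv) were examined in the mid-colon of arthritic and healthy mice. Members were the rows of the deposited count table whose mouse symbol starts with Igkv, which gave 103 of 27179 rows, 102 annotated as variable segments and 1 as a pseudogene segment. The RefSeq annotation of GRCm38 holds 162 such symbols, and those with no row were not analysed here. Arthritis in the CIA group was induced with collagen. These animals were DBA/1 males aged 9 to 10 weeks and received bovine type II collagen in Complete Freund's adjuvant on day 0 and a second dose of the collagen into the peritoneum on day 21. The naïve mice were housed with them and shared strain, sex and tissue. Colon was taken 7 days after the onset of symptoms, or from naïve mice at matching times, every 4 h from ZT0 (lights on) to ZT20, with 5 mice per treatment at each of 6 times, so 30 CIA and 30 naïve libraries. The CIA mice had received both collagen and adjuvant, and no adjuvant-only mice were analysed here, so arthritis and immunization cannot be told apart. Each library came from 1 section of the whole wall, 5 mm long.

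An antibody light chain is assembled in the developing B cell, when 1 variable segment is joined to 1 joining segment (Igkj) upstream of the constant segment (Igkc). Every descendant of that cell, including the plasma cells that secrete antibody, transcribes the chosen segment, so the mix of variable segments in a tissue reflects which B-lineage clones it holds. In the mouse most light chains are of the kappa type, and the gut wall is rich in plasma cells that make IgA, which is carried across the epithelium by the receptor Pigr. Each segment has a short leader exon and a longer exon that encodes most of the variable domain, and its last bases form the start of the third antigen-binding loop, at the junction with the joining segment.

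The junctional ends of the segments show how far their names can be told apart in sequence. The ends below belong to the 6 segments with the highest CPM (counts relative to the scaled library total), to a pair that moved to opposite sides in usage, and to 2 segments described later. They are reference sequences from GENCODE M21 on GRCm38 chromosome 6, with the codons up to the conserved cysteine in lower case and the germline bases after it, which enter the junction, in capitals.
Igkv1-110: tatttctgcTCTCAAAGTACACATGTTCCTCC
Igkv1-117: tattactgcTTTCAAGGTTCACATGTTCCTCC
Igkv10-96: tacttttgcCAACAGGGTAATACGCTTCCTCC
Igkv12-44: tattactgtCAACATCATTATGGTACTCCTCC
Igkv6-15: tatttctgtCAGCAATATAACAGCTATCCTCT
Igkv8-30: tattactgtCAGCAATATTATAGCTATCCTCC
Igkv6-13: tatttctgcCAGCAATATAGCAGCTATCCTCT
Igkv6-23: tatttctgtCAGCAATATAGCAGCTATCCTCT
Igkv4-59: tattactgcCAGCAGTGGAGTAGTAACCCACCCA
Igkv12-89: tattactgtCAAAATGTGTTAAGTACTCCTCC
An end was found for 100 of the 102 members with a GENCODE sequence, and these made 86 distinct ends. Igkv6-13 and Igkv6-23 had the same capitals. The end of Igkv4-59 was shared by 5 segments, the other four being Igkv4-68, Igkv4-71, Igkv4-72 and Igkv4-73.

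Over their last 280 bases, the 91 segments that passed the filter on low counts were between 74.3% and 98.9% identical to their nearest relative, with a median of 95%. The nearest relative was at least 95% identical for 46 of them. A stretch of 76 bases, the length of a read, was shared without mismatch with another segment by 60 of the 91, and for 1 segment over 50% of such stretches were shared. The pair with the highest CPM differed at 9 of 280 bases. The last 120 bases of both are given with the 4 differing bases in capitals, to show how much of a read they have in common.
Igkv1-110: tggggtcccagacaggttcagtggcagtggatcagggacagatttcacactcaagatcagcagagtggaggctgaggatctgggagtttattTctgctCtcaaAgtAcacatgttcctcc
Igkv1-117: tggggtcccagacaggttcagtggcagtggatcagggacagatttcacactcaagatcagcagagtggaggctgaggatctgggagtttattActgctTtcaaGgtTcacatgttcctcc
The deposited counts do not show how reads that fit several segments were assigned, and the reference is of another strain than DBA/1. A segment's name is therefore that of the reference gene that received the read, and single-segment values are uncertain to that extent, while sums over segments are less so.

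Library totals were between 31382664 and 57564488 counts in CIA and between 25840240 and 61425974 in naïve mice. The colon label was checked on 14 epithelial genes, whose mean log2 CPM lay between 10.0 and 10.8 in CIA and between 10.1 and 10.6 in naïve libraries. A list of 20 smooth muscle genes moved with treatment: its mean log2 CPM was 8.75 to 10.4 in CIA (median 9.75) and 7.91 to 10.0 in naïve libraries (median 8.97), and 20 of 20 were higher in CIA. Because the tissue was a whole-wall section, this shift stands beside every level given here. Fewer cells of a type and less RNA per cell cannot be told apart in such samples.

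Summed over all 103 rows, Igkv transcripts were scarcer in the arthritic colon. The sum was 70.7 CPM in the lowest, 305 CPM in the median and 643 CPM in the highest CIA library, against 129, 592 and 1531 CPM in naïve libraries. The mean sum was 298 ± 126 CPM (SD) over the 30 CIA libraries and 684 ± 330 CPM over the 30 naïve libraries, and the median was 1.94 times as high in naïve as in CIA. The treatments overlapped: 14 naïve libraries lay above the highest CIA library, 1 CIA library lay above the naïve median, and 3 naïve libraries lay below the CIA median. On the log2 scale the difference of means was -1.17, with an SD of 0.73 within treatments. As a score over the members, the sum was given no test.

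The CIA median was the lower at 6 of 6 times. At ZT8 the summed level was 70.7, 239, 307, 332 and 356 CPM in CIA, against 493, 513, 550, 784 and 1017 CPM in naïve mice, with no overlap. At ZT12 it was 119, 132, 146, 329 and 454 CPM in CIA, against 275, 354, 734, 890 and 953 CPM in naïve mice. The ratio of medians at ZT12, naïve over CIA, was 5.05, the highest of the 6. At ZT20 it was 264, 281, 309, 349 and 367 CPM in CIA, against 129, 447, 708, 961 and 1297 CPM in naïve mice. There 4 naïve libraries lay above every CIA library and the fifth, replicate 4, lay below every one of them. The ratio of medians was 1.54 at ZT0, 2.08 at ZT4, 1.79 at ZT8, 1.84 at ZT16 and 2.29 at ZT20.

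**Figure D1:**
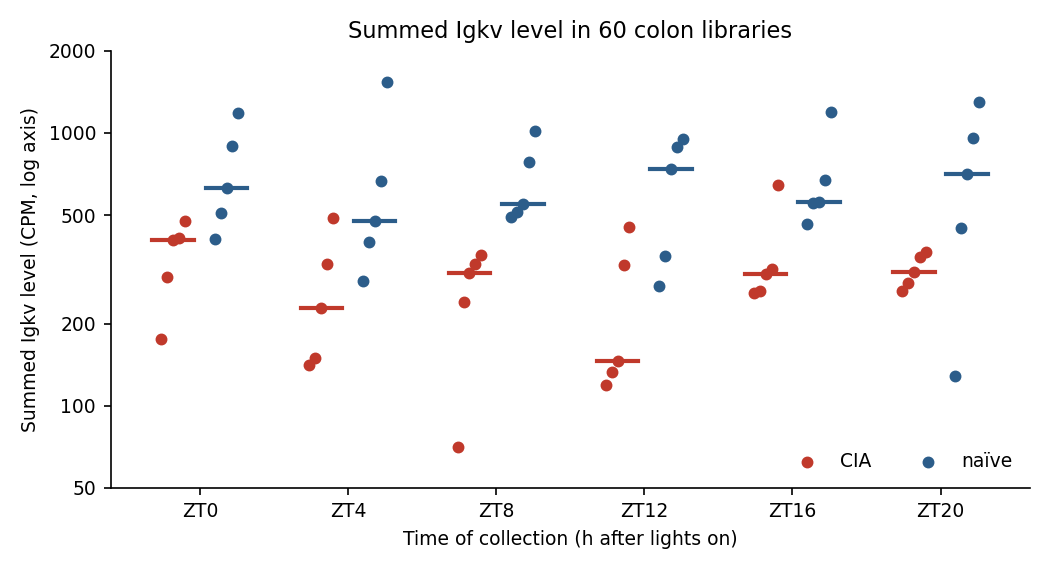
Summed Igkv level (CPM, log axis) in each of 60 libraries by time of collection, with CIA in red to the left of naïve in blue; each point is 1 mouse and each bar the median of 5. The CIA median lies below the naïve median at 6 of 6 times, and the point clouds overlap at all times but ZT8.

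Of the 91 tested segments, 61 fell in CIA and 0 rose (edgeR quasi-likelihood test over 60 libraries, Benjamini-Hochberg adjusted p under 0.05 over 18057 genes). Among all genes tested, 20.4% were lower and 17.6% higher. The median log2 fold change (CIA over naïve) of the segments was -1.16, with an interquartile range of -1.47 to -0.79, against -0.02 over all genes, and 89 of 91 estimates lay below 0. The count was far smaller in a model that held the smooth muscle shift: once the smooth muscle score entered the model, 9 segments were lower and 0 higher, and the median was -0.75, with 79 of 91 below 0. In that model 2.23% of all genes were lower and 2.24% higher, so calls were fewer over the whole table too. With the score of 15 B cell genes as a covariate, 64 were lower, and with the epithelial score, a setting chosen after the data were seen, 61, beside 22.2% and 20.8% of all genes lower in the same models. The smooth muscle score itself differed between treatments, so a model with both terms cannot separate it from treatment. The part of wall composition in the fall was not tested.

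Igkv1-110 (chr6:68270527-68271265) had the highest mean CPM and also the highest mean CPM per kilobase of transcript. Its level was 2.66, 12.4 and 32.3 CPM in the lowest, median and highest CIA library, against 4.70, 39.7 and 210 CPM in naïve libraries. No CIA library lay above the naïve median, and 18 naïve libraries lay above the highest CIA library. The log2 fold change was -1.70 ± 0.24 (SE), with an adjusted p of 3.1e-07 in the edgeR test, the smallest of the 91.

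Igkv1-117 (chr6:68121091-68121825), its close relative, was at 4.41, 12.9 and 44.7 CPM in CIA, against 3.37, 38.1 and 170 CPM in naïve libraries. The log2 fold change was -1.38 ± 0.24 (adjusted p = 1.3e-05 in the same test). Igkv10-96 (chr6:68631965-68632430) was at 2.22, 11.6 and 45.8 CPM in CIA, against 10.7, 26.6 and 156 CPM in naïve libraries, and fell by 1.21 ± 0.24 on the log2 scale. CIA libraries above the naïve median numbered 3 for Igkv1-117 and 4 for Igkv10-96. Per kilobase of transcript, the medians of Igkv1-110, Igkv1-117 and Igkv10-96 were 30.9, 31.9 and 32.2 CPM in CIA, which is nearly level, against 99.1, 94.4 and 74.1 CPM in naïve mice.

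The next segments by CPM were Igkv12-44, Igkv6-15, Igkv8-30, Igkv4-59, Igkv3-2, Igkv3-12, Igkv5-48, Igkv8-21 and Igkv1-135, and 11 of these 12 leaders by CPM were also among the first 12 per kilobase. All 12 fell in the model of treatment alone, with log2 fold changes between -1.79 (Igkv3-2) and -0.80 (Igkv4-59), and all had estimates below 0 at 6 of 6 times. Igkv6-15 was at 1.23, 8.34 and 24.5 CPM in CIA, against 4.24, 14.9 and 154 CPM in naïve libraries, and fell by 1.48 ± 0.28. Igkv4-59 had a narrower spread, with 1.37, 9.21 and 22.4 CPM in CIA, against 4.32, 14.9 and 41.8 CPM in naïve libraries. Igkv12-44 was the least certain of the 12, at 1.66, 7.69 and 62.8 CPM in CIA and 4.30, 12.1 and 113 CPM in naïve libraries. Its log2 fold change of -0.89 ± 0.35 had an adjusted p of 0.038 in the edgeR test, which was lost without 9 of the 60 libraries taken singly, being highest, at 0.11, without naïve ZT8 replicate 3. Its direction turned with the smooth muscle score in the model (0.091) and with log2 CPM of Igkc (0.72).

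Among segments with a mean of at least 1 CPM, the others named by a small adjusted p were Igkv3-7, Igkv4-72 and Igkv5-43. Igkv3-7 fell by 2.15 ± 0.33 on the log2 scale, the largest fall of these (adjusted p = 1.8e-06 in the edgeR test). Its level was 0.39, 2.11 and 9.87 CPM in CIA, against 1.13, 6.32 and 71.1 CPM in naïve libraries, and 12 naïve libraries lay above the highest CIA library. Igkv4-72 fell by 1.56 ± 0.25 and Igkv5-43 by 1.53 ± 0.28. The 9 segments still lower with the smooth muscle covariate were Igkv1-110, Igkv1-117, Igkv3-7, Igkv3-9, Igkv3-12, Igkv4-72, Igkv5-43, Igkv6-13 and Igkv14-100. Of these, Igkv3-9 had a mean of 0.18 CPM, and naïve ZT0 replicate 3 held 48.3% of its summed CPM.

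**Figure D2:**
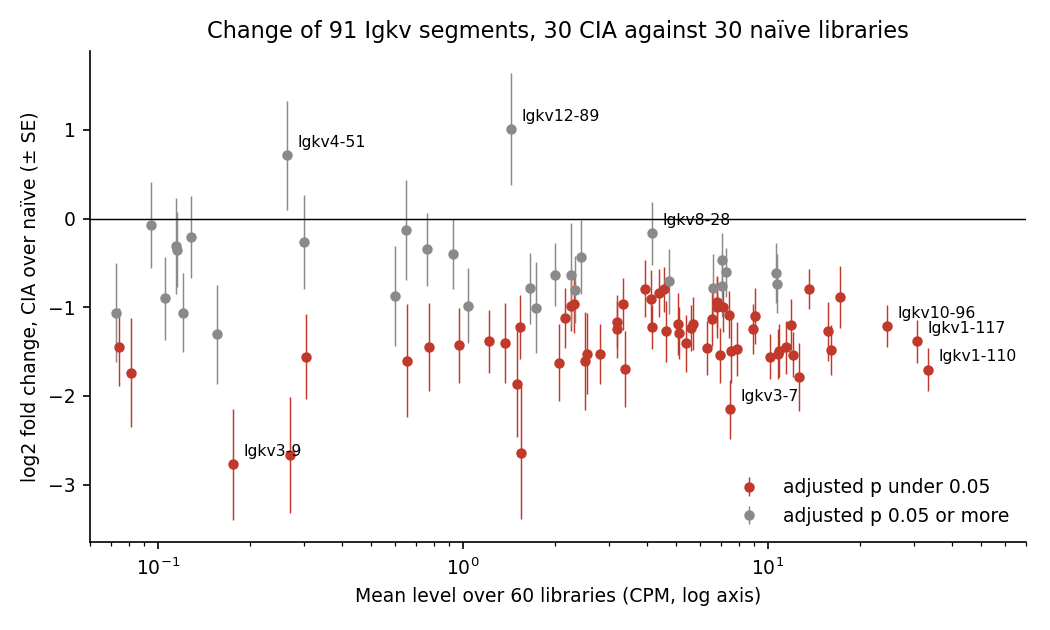
Log2 fold change of CIA over naïve (± SE) against mean CPM (log axis) for the 91 tested segments, with those past the adjusted threshold in red and the others in grey. Igkv12-89 and Igkv4-51 are the 2 points above 0, and neither passed the test.

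The share of segments called was larger at higher levels. Of 16 segments over 10 CPM, 14 were lower, of 53 between 1 and 10 CPM 39, and of 22 under 1 CPM 8, while the median SE was 0.28, 0.33 and 0.52 in these classes. The estimates lay below 0 for 16 of 16, 52 of 53 and 21 of 22. The tested segments that did not pass with the smallest SE were Igkv4-57-1, Igkv19-93 and Igkv8-24. Igkv4-57-1 had 1.03, 4.03 and 33.4 CPM in CIA, against 1.277, 7.34 and 30.4 CPM in naïve libraries, a log2 fold change of -0.61 ± 0.28 (adjusted p = 0.077 in the edgeR test). Igkv8-24 had a log2 fold change of -0.73 ± 0.33 and Igkv19-93 of -0.47 ± 0.31. Of the 103 rows, 12 did not pass the filter on low counts. Their totals over 60 libraries were 0 to 194 counts, with Igkv8-34 (194) and Igkv8-16 (168) highest. Igkv1-35 and the pseudogene Igkv13-71-1 had 0 counts in every library.

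The fall was spread over segment families, which group segments by sequence. Family 4, the largest, had 14 of 25 tested segments lower, with a median log2 fold change of -0.98. Family 3 had 7 of 9 lower (median -1.53), family 1 5 of 8 (-1.39), family 8 6 of 8 (-1.37), family 6 6 of 8 (-1.03), family 12 4 of 6 (-1.04) and family 5 5 of 5 (-1.45), each beside a background of 20.4% of all genes. Family 4 held 19.05 ± 4.61% of Igkv counts in CIA and 17.70 ± 4.25% in naïve mice (SD, n = 30 each). Family 1 held 14.9 ± 5.3% in CIA and 17.1 ± 5.0% in naïve mice. Family 3 held 8.06 ± 2.63% in CIA and 9.96 ± 3.70% in naïve mice. These shares differ by less than 1 SD, which is the spread between mice and not the precision of a mean over 30. The family shares were not tested. Among the 60 segments that share a 76-base stretch with another, 46 were lower, and among the 31 that share none, 15.

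The locus lies on chromosome 6, and the members stretch over 3170 kb upstream of Igkc, some on either strand because parts of the locus are inverted. By distance from Igkc, 20 of the 31 farthest, 19 of the 30 middle and 22 of the 30 nearest tested segments were lower, with median log2 fold changes of -1.13, -1.06 and -1.282. Of the segments on the plus strand 26 of 36 were lower, and of those on the minus strand 35 of 55. The correlation of the fold change with distance was weak, with a Spearman's rho of 0.12 over the 91 segments, which share libraries and, in part, sequence. The nearest, middle and farthest groups held 33.3%, 27.9% and 38.7% of Igkv counts in CIA and 33.97%, 26.3% and 39.7% in naïve mice.

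**Figure D3:**
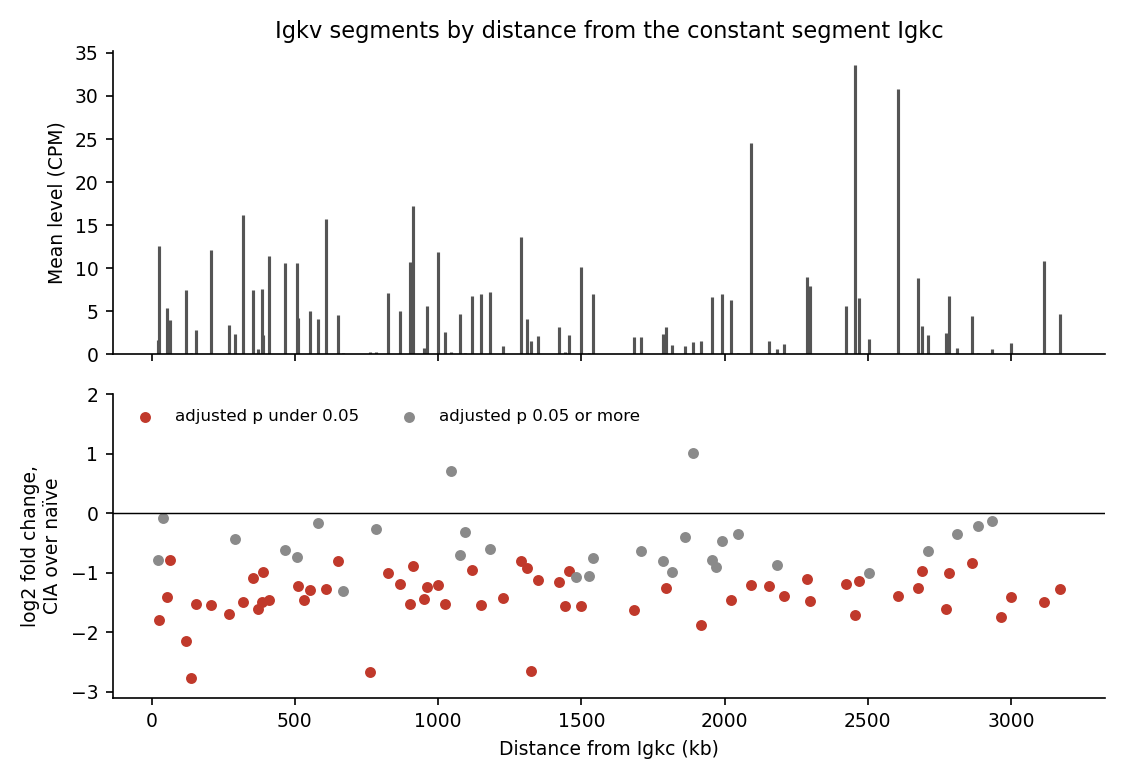
Mean CPM over 60 libraries (top) and log2 fold change of CIA over naïve (bottom) of the 91 tested segments by distance from Igkc in kb, with segments past the adjusted threshold in red. High and low segments are interspersed along the locus, and called segments are found throughout it.

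Other parts of the antibody transcript moved alongside the variable segments. Igkc, the constant segment that every kappa chain carries, was at 277, 764 and 1158 CPM in CIA, against 322, 1338 and 2798 CPM in naïve libraries, a log2 fold change of -1.02 ± 0.15 (adjusted p = 5.8e-07 in the edgeR test). The 5 Igkj segments fell, 5 of 5, with a median log2 fold change of -1.13. Counts of Igkv per count of Igkc had a median of 0.404 in CIA and 0.432 in naïve mice. The means were 0.404 ± 0.103 in CIA and 0.449 ± 0.083 in naïve mice (SD, n = 30 each). They lay within 1 SD between mice of each other, and their difference was not tested. With log2 CPM of Igkc as a covariate, 3 Igkv segments were lower and 1 higher, and the median log2 fold change was -0.15. Of all genes 3.99% were lower and 3.77% higher there, so the segments' share was near or below that of all genes.

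The heavy chain did likewise, with 61 of 79 tested Ighv segments lower (median -1.08) and 4 of 4 Ighj segments. Of 3 lambda variable segments (Iglv), 2 were lower. Igha, the constant segment of IgA, fell by 0.79 ± 0.15, and Jchain, which links antibodies into polymers, by 0.85 ± 0.14. Pigr, the epithelial receptor that carries them into the lumen, had a log2 fold change of -0.08 ± 0.08 and did not pass (adjusted p = 0.39 in the edgeR test). Over the list of constant segments and transport genes, 8 of 14 were lower and 0 higher, beside the background of 20.4% lower.

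Plasma cell genes fell with the segments and B cell genes were not called. Of 15 plasma cell genes, 11 were lower and 0 higher, with a median log2 fold change of -0.45. Tnfrsf17, the plasma cell survival receptor BCMA, fell by 1.13 ± 0.16, and Ccr10, a homing receptor of IgA plasma cells, by 0.66 ± 0.10. Of 15 B cell genes 0 passed in edgeR (median -0.37), and of 6 germinal centre genes 0 (median 0.12). The SE was 0.15 (Ebf1) to 0.49 (Fcmr) for B cell genes and 0.06 (Sdc1) to 0.25 (Tnfrsf13b) for plasma cell genes. The lack of calls therefore does not show that B cell genes kept their level. Beside 20.4% of all genes lower and 17.6% higher, 3 of 10 genes of kappa transcription were lower, close to that background, including Tcf3, an E protein that binds the kappa enhancer, which fell by 0.23 ± 0.04. Of 11 T cell genes 6 were lower. Of 14 epithelial genes 3 were lower and 1 higher, again near the background. Of 5 genes of antibody gene recombination 1 was tested and it did not pass, and Rag1, which cuts the segments, had a median of 0 CPM in both treatments.

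Usage was examined as the share of each segment in all Igkv counts, so that the general fall drops out. A few segments made much of the repertoire: over 60 libraries the first held 6.83% of the summed Igkv CPM, the first 3 18.1%, the first 10 38.3% and the first 50 91.04%. A mean of at least 10 CPM was reached by 16 segments, and of at least 1 CPM by 69. Igkv1-110 was the leading segment in 7 CIA and 8 naïve libraries, Igkv1-117 in 6 CIA and 7 naïve libraries, and Igkv10-96 in 2 CIA and 4 naïve libraries. The remaining 15 CIA and 11 naïve libraries were each led by another segment.

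Evenness differed between treatments by less than the SD between mice, and the difference of means was not tested. The leading segment took 6.41%, 8.95% and 16.1% of Igkv counts in the lowest, median and highest CIA library, against 5.88%, 10.6% and 16.2% in naïve libraries. The first 5 took a median of 30.6% in CIA and 31.7% in naïve mice. The effective number of segments, the inverse Simpson index of the shares, was 28.9 ± 5.0 in CIA and 28.1 ± 5.6 in naïve mice (SD, n = 30 each). A median of 85 segments in CIA and 90 in naïve libraries had at least 1 count, with 13178 and 25782 Igkv counts behind them at the median. The lower number thus stood beside the lower depth.

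**Figure D4:**
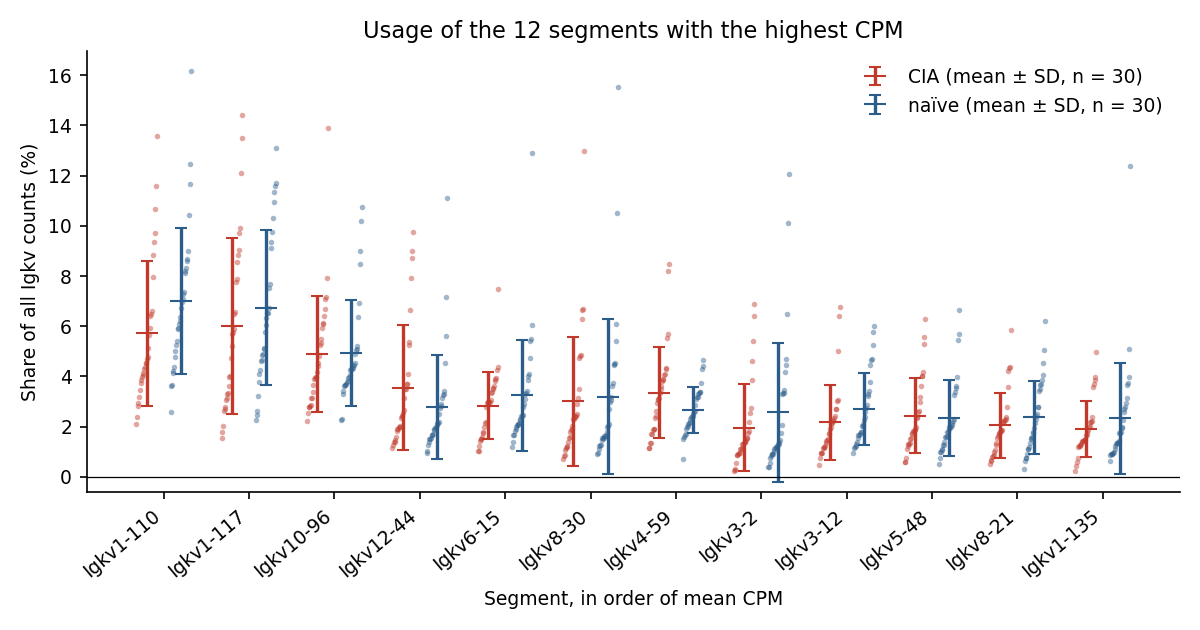
Share of all Igkv counts (%) of the 12 segments with the highest mean CPM, with CIA in red to the left of naïve in blue; small points are libraries and the marks are mean ± SD over 30. Every pair of error bars, which show the spread between mice and not the precision of the mean, overlaps, and single libraries reach 16.2% for Igkv1-110.

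Of the 91 segments, 3 had a lower and 9 a higher share in CIA when the total Igkv count was used as library size (edgeR, same threshold). Since the Igkv total itself was lower in CIA, 95.4% of all genes were called higher and 0.0775% lower on this scale, so the adjustment hardly acted: 12 segments also had an unadjusted p under 0.05, and the smallest was 0.0035. The balance moved with the model. With the Igkc count as library size 9 segments were lower and 5 higher. There 93.4% of all genes were called in either direction, so the adjustment again hardly acted. With the usual scaling and log2 of the Igkv total as a covariate, which was chosen after the data were seen, 3 segments were lower and 2 higher, with 12.4% of all genes called in either direction. The shares of Igkv1-110, 5.73 ± 2.89% in CIA and 7.02 ± 2.91% in naïve mice, did not pass (usage log2 fold change -0.29 ± 0.18), nor did those of Igkv1-117, 6.0 ± 3.5% in CIA and 6.7 ± 3.1% in naïve mice.

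The lower shares were those of Igkv3-7, Igkv6-13 and Igkv3-9. For Igkv3-9, with medians of 0 CPM in CIA and 0.08 CPM in naïve libraries, naïve ZT0 replicate 3 held 48.3% of the summed CPM. Its usage call was not examined without that library. Igkv3-7 held 1.00 ± 0.82% in CIA and 1.65 ± 1.67% in naïve mice, a usage log2 fold change of -0.73 ± 0.26, and this call was lost without naïve ZT8 replicate 4, where the segment reached 9.07%. Igkv6-13 held 0.51 ± 0.46% in CIA and 0.87 ± 1.54% in naïve mice (usage log2 fold change -0.78 ± 0.37), with 25.2% of its summed CPM in naïve ZT0 replicate 5. Its near relative Igkv6-23, 96.1% identical and with the same germline end, was called the other way, at 2.93 ± 2.96% in CIA and 1.92 ± 1.87% in naïve mice (usage log2 fold change 0.61 ± 0.29). Its CPM were 0.35, 6.87 and 35.9 in CIA, against 2.38, 6.65 and 76.7 in naïve libraries, so the medians were close in level.

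The other higher shares with a mean of at least 1 CPM were those of Igkv8-28, Igkv19-93, Igkv4-57-1 and Igkv12-89. Igkv8-28 held 1.40 ± 2.09% in CIA and 0.72 ± 0.76% in naïve mice (usage log2 fold change 0.97 ± 0.32). Igkv19-93 held 1.86 ± 1.39% in CIA and 1.20 ± 0.65% in naïve mice (0.63 ± 0.24). Igkv4-57-1 held 2.00 ± 1.44% in CIA and 1.37 ± 0.94% in naïve mice (0.54 ± 0.24). Igkv12-89 held 0.37 ± 1.32% in CIA and 0.16 ± 0.19% in naïve mice, but its median share was lower in CIA, at 0.057%, against 0.090% in naïve mice. Its call ended without CIA ZT16 replicate 3, when its usage log2 fold change was -0.27 ± 0.45 (adjusted p = 0.55 in the edgeR test). In each of these segments the SD in CIA is larger than the difference. Igkv9-129, Igkv11-125, Igkv10-95 and Igkv4-51 were also called higher, each below 1 CPM. For Igkv4-51, CIA ZT12 replicate 2 held 46.98% of the summed CPM, and without it the usage log2 fold change was -0.11 ± 0.53 (adjusted p = 0.84 in the edgeR test).

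Repertoires differed widely between mice of the same treatment. The share that would have to change segment to turn 1 library's profile into another's had a median of 38.9% over 435 pairs of CIA libraries and 36.6% over 435 pairs of naïve libraries. Between a CIA and a naïve library the median was 37.6% over 900 pairs, which lies between the within-treatment values. Pairs taken at the same time had medians of 38.8% within CIA and 34.9% within naïve mice, against 38.9% and 36.8% at different times.

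Part of this spread came from segments that were high in 1 mouse. If all libraries were alike, 1 library would hold 1.67% of a segment's summed CPM, whereas the highest library held between 5.12% and 66.0%, with a median of 10.9%. For 10 of the 91 segments it held at least 25%, and the library was CIA for 2 of them and naïve for 8. For 54 segments it held at least 10%, and the library was CIA for 9 and naïve for 45. Naïve libraries thus led at both bars, beside the higher naïve sum. Of the 10 segments at 25% or more, 8 were called lower in the pooled test, as were 61 of all 91. Among these 8, only Igkv6-13 was followed on leaving out single libraries. Its call stood in 60 of 60 runs, with a log2 fold change of -1.17 without naïve ZT0 replicate 5. Whether the other calls of a fall depend on 1 naïve mouse was not tested. Igkv4-62 was at 61.5 CPM in naïve ZT8 replicate 5, where it was the leading segment with 11.2% of Igkv counts, and at 0, 0.28, 0.44 and 0.84 CPM in the other naïve mice of that time. Over all libraries of a treatment, the median was 0.05 CPM for CIA and 0.18 CPM for naïve. Igkv4-62 was called lower, with a log2 fold change of -2.64 (adjusted p = 0.004 in the edgeR test), and this call was not examined without that mouse.

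Igkv12-89 (chr6:68834846-68835307) was at 47.01 CPM in CIA ZT16 replicate 3, or 7.31% of that library's Igkv counts, and at 0, 0.05, 0.23 and 0.63 CPM in the other CIA mice of that time. Its median was lower in CIA, at 0.15 CPM, against 0.59 CPM in naïve libraries, while its fitted log2 fold change was 1.01 ± 0.63. Without that library the log2 fold change was -1.39, with an adjusted p of 0.018 in the edgeR test. Igkv4-91 was at 76.6 CPM in CIA ZT0 replicate 4, where it held 16.1% of Igkv counts, against medians of 1.97 CPM in CIA and 6.05 CPM in naïve libraries. Its log2 fold change of -0.79 ± 0.38 did not pass, and without that library it was -1.80 (adjusted p = 1e-06 in the edgeR test). Igkv6-13 was at 51.5 CPM in naïve ZT0 replicate 5 and between 1.58 and 4.44 CPM in the other naïve mice of that time.

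**Figure D5:**
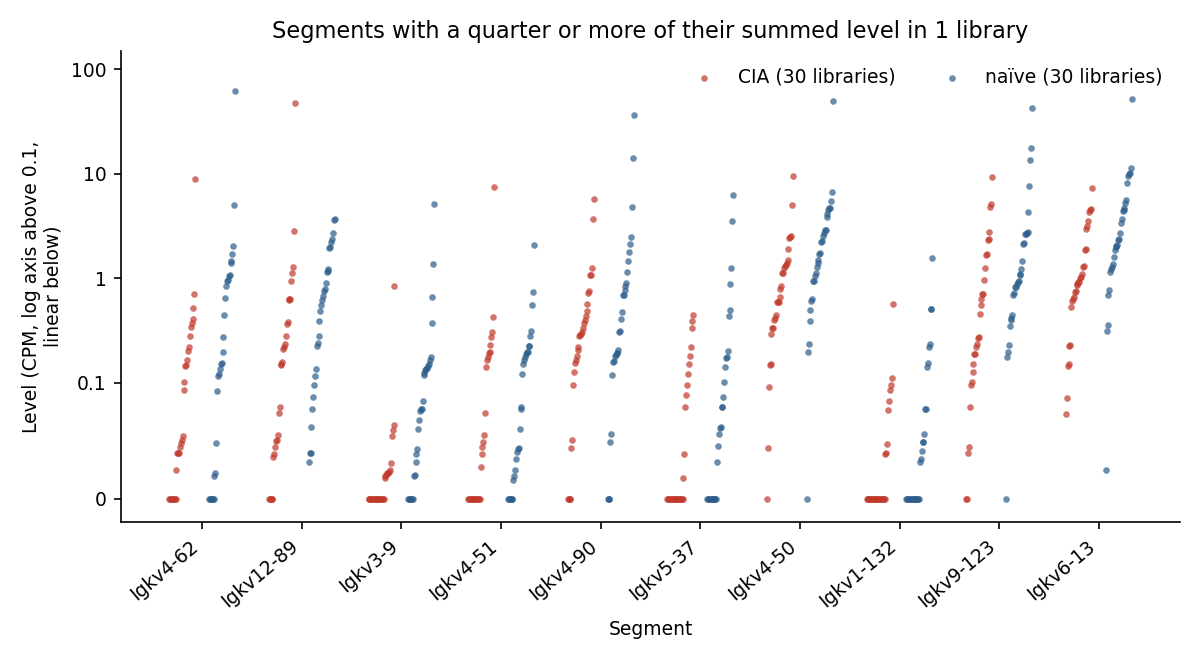
Level in 60 libraries (CPM, log axis above 0.1 and linear below) of the 10 segments for which 1 library held at least 25% of the summed CPM, with CIA in red to the left of naïve in blue. For Igkv4-62 and Igkv12-89 a lone point stands far above the other 59 libraries.

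Few segments were called for time of day. With treatment and time in 1 model, 12 of 91 segments passed the test of the 5 time terms, below the 39.9% of all genes that did. An unadjusted p under 0.05 was reached by 19 segments in this edgeR test, beside 8576 of 18057 genes. Given the spread between mice, a segment that did not pass is not shown to be constant over the day. The highest library held a median of 22.6% of the summed CPM for these 12 segments, and 10.7% for the others. Igkv4-63 had the smallest adjusted p, and its highest library held only 6.87%. Its mean was 4.49 CPM at ZT0, 1.03 at ZT4, 2.13 at ZT8, 1.89 at ZT12, 1.06 at ZT16 and 2.34 at ZT20. Igkv12-89, by contrast, was highest at ZT16 through the mouse named above. The 12 segments had their highest mean at ZT0 (5), ZT4 (2), ZT8 (1), ZT12 (1), ZT16 (2) and ZT20 (1).

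The difference between treatments was not shown to change with time. In the test of the 5 interaction terms 0 of 91 segments passed in edgeR and 0% of all genes. An unadjusted p under 0.05 was reached there by 12 of 91 segments, beside 817 of 18057 genes. DESeq2 called 0 segments. In separate tests of 5 CIA against 5 naïve libraries, 7 segments were lower at ZT12 and 4 at ZT20, where 2.13% and 3.76% of all genes were lower. At ZT0, ZT4, ZT8 and ZT16 edgeR called 0 segments and 0% of all genes lower. At those times 28, 34, 36 and 24 segments had an unadjusted p under 0.05, beside 15.9%, 13.2%, 6.53% and 9.78% of all genes. DESeq2 called 12, 14, 4 and 5 segments lower, beside 0.842%, 0.482%, 0.327% and 0.438% of all genes. The median log2 fold change was -0.99 at ZT0, -1.36 at ZT4, -1.18 at ZT8, -1.33 at ZT12, -0.69 at ZT16 and -0.83 at ZT20. The estimate lay below 0 at 6 of 6 times for 43 segments and at 5 for 34.

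The 7 segments called at ZT12 were Igkv1-117, Igkv1-99, Igkv3-9, Igkv4-53, Igkv5-48, Igkv8-18 and Igkv8-26. Low means over 60 libraries limit the calls of Igkv1-99 (0.60 CPM), Igkv3-9 (0.18 CPM), Igkv8-18 (0.65 CPM) and Igkv8-26 (0.07 CPM). Igkv1-117 fell there by 2.84 ± 0.42 on the log2 scale (adjusted p = 0.02 in the edgeR test) and Igkv5-48 by 2.28 ± 0.49. The 4 called at ZT20 were Igkv3-10, Igkv8-19, Igkv14-100 and Igkv17-121, with log2 fold changes between -2.67 and -1.80. These counts moved with single libraries: leaving 1 out gave 0 to 11 at ZT12 and 0 to 7 at ZT20.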

How the data were processed

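The deposited table of the authors held raw counts for 27179 Entrez genes in 60 libraries. According to the submitters' processing notes, reads were handled with bcl2fastq 2.17.1.14, Trimmomatic 0.36 and STAR 2.5.3 on mm10 (GRCm38), and the study's methods name Rsubread as the counter of stranded paired-end libraries. How strand, pairs and reads that match several places were counted is not given in the sources used here. Of the Igkv counts from 1 to 20, 82.6% were even, so an alternative halved all counts. Names were taken from RefSeq (GRCm38.p6), and 1904 rows (0.539% of counts) had no name. Sequences came from GENCODE M21, matched for 102 of 103 members.

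Software was R 4.3.3 and its packages DESeq2 1.42.0, edgeR 4.0.16 and limma 3.58.1. The filter on low counts was filterByExpr over the 12 groups (minimum count 10, minimum total 15), which left 18057 genes, with TMM scaling. CIA was set against naïve over 60 libraries with the legacy quasi-likelihood test of edgeR, in a model of treatment alone, adjusted by Benjamini-Hochberg over all genes. The same test was run within each time, for usage with the total Igkv count as library size, and for the time and interaction terms. The SE is the absolute log2 fold change over the square root of F. List scores are means of log2 CPM (prior count 2).

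Libraries were from separate mice. Of 30 pairs of libraries with the same replicate number and time, 8 correlated by over 0.1 in their deviations from group means (-0.47 to 0.45), so the numbers were not used as pairs. Library totals bound the precision, and correlations between libraries were 0.924 to 0.989. The members and lists were chosen with earlier results of these data known. Segments were named by a rule: the 12 with the highest mean CPM, the 8 with the smallest adjusted p, up to 5 per direction of usage, the 3 with the smallest SE that did not pass, the 5 reaching the largest share in a library, and pseudogenes. Igkv4-62, Igkv4-63, Igkv3-9, Igkv9-129, Igkv11-125, Igkv10-95, Igkv4-51, Igkv14-100, the relatives of Igkv4-59 in sequence, the low-count rows and the segments called at ZT12 or ZT20 were named after their values were seen. The fitting code was tested on simulated data.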

Additional observations from a re-analysis of the deposited data

Results flagged for a closer look

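Among the 12 groups of 5 libraries, the gap between the outermost library and its neighbour was compared with the group's range for 7 measures, 84 sets in all. The measures were the summed Igkv level, the share of the leading segment and the effective number of segments. The others were the CPM of Igkv1-110, Igkv1-117, Igkv10-96 and Igkv12-89, and no other segment was examined. Dixon's critical value of 0.71 was passed in 9 of them. Chance flags about 1 set in 20 where values are normally distributed, but the values were tested without a log, so that rate need not hold here. Igkv12-89 is described above for its level in CIA ZT16 replicate 3, so its flag there adds no support. The summed Igkv level stood apart in CIA ZT16 replicate 3 (643 CPM, next 318 CPM) and in naïve ZT16 replicate 2 (1190 CPM, next 673 CPM). The share of the leading segment stood apart in CIA ZT0 replicate 4, at 16.1% for Igkv4-91, next 7.95%.

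Among single segments, Igkv12-89 stood apart in CIA ZT8 replicate 3 (1.13 CPM, next 0.08 CPM), CIA ZT16 replicate 3 (47.01 CPM, next 0.63 CPM) and naïve ZT0 replicate 3 (3.56 CPM, next 0.56 CPM). Igkv1-117 stood apart in CIA ZT20 replicate 3 (33.2 CPM, next 13.9 CPM), Igkv10-96 in naïve ZT4 replicate 1 (156 CPM, next 24.2 CPM) and Igkv1-110 in naïve ZT16 replicate 2 (103 CPM, next 40.4 CPM). In all 9 sets the library that stood apart was the highest of its group.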

How the results depend on the processing

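The count of 61 lower segments was 53 to 66 under other scaling, tools, filters, halved counts, time as a term, the B cell or epithelial score, and without any 1 time, 64 with the replicate block and 61 with it within time. Leaving out 1 library gave 58 to 65. It was 9 with the smooth muscle score, 11 with that score and time (chosen after the data were seen), 3 with log2 Igkc (1 higher, median -0.15) and 4 past an absolute log2 fold change of 2.

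By time, DESeq2 called 12, 14, 4, 19, 5 and 11 lower from ZT0 to ZT20, beside 6.7% of all genes at ZT12 and 8.58% at ZT20. With the replicate block 0 were lower at ZT12 and 1 at ZT20, and in 1 fit of 12 groups, chosen later, 9 were lower and 1 higher at ZT12 and 9 lower at ZT20, beside 6.42% and 6.88% of all genes lower. Leaving out 1 library gave 0 to 1 at ZT0, 0 to 11 at ZT12 (at most 3 without 8 of its 10 libraries, 11 without CIA replicate 2) and 0 to 7 at ZT20 (at most 2 without 6 of 10, 7 without naïve replicate 4). Usage gave 9 lower and 5 higher with the Igkc count as library size, 2 lower and 4 higher with the replicate block, 5 with time and 2 with log2 of the Igkv total. Leaving out 1 library gave 2 to 5 lower (5 without CIA ZT4 replicate 2 or CIA ZT8 replicate 1) and 7 to 12 higher. For time of day, 4 segments were called with the replicate block, against 12 without it. Whether the 4 were among the 12 was not examined.

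Signs turned for these log2 fold changes. Igkv12-89 was -1.36 with DESeq2, -1.47 with voom, -0.67 with time, -0.74 with the replicate block, -1.46 with it within time, -1.01 with smooth muscle and time, -1.25 without ZT16 and -1.39 (without CIA ZT16 replicate 3) to 1.16 on leaving out 1 library. Igkv8-28 was 0.031 with smooth muscle, 0.59 with Igkc, 0.0068 without ZT12, 0.17 without ZT20 and -0.46 to 0.11 on leaving out 1 library, the highest without naïve ZT20 replicate 5. Igkv12-44 was 0.091 with smooth muscle, 0.14 with that and time, and 0.72 with Igkc. Igkv8-24 was 0.16 with smooth muscle. With Igkc, Igkv4-59 was 0.15, Igkv5-48 0.092, Igkv19-93 0.68, Igkv6-23 0.46, Igkv4-57-1 0.20 and Igkv4-91 0.20. Igkv4-57-1 passed without CIA ZT12 replicate 2 or CIA ZT16 replicate 3, and Igkv8-24 without CIA ZT8 replicate 1, CIA ZT8 replicate 3 or CIA ZT16 replicate 3. The causes were not tested. Depth limits the segments under 1 CPM, and reads shared by related segments limit all single-segment values.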
